A study of Mus musculus with 16 samples.

Results

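The genes described here are 9 autosomal genes gathered because their level differed between Adam8 mutant and wild-type mouse intervertebral discs in both intact and injured discs: Rtel1, Crybg1, Tmem181b-ps, Dynlt1, Rnf144b, Zfp970, Gm14325, Gm14326 and Sox7. They were chosen by name out of 49315 genes because of their genotype difference in these same libraries. All 9 were among the 24188 genes that entered the tests because 3 or more libraries held them at 1 TPM or above. TPM (transcripts per 1000000) is a level per transcript length. The differences between mutant and wild type that picked the genes are therefore given as descriptions, with no test read from them. The choice also looked at whether that difference depended on injury, so the changes of the 9 genes with injury are described in the same way. The tests bear on genes outside the 9, which are the neighbouring genes, the close gene copies and the partner families. The close copies and some neighbours share sequence with the 9 genes. Their levels may therefore not be separate from the values behind the choice. The lists were also drawn up with earlier results of these data known.

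Each library was bulk RNA from 1 mouse, with 4 tail discs pooled. The 4 groups were wild-type intact discs (3 mice), Adam8EQ mutant intact discs (4 mice), wild-type injured discs (4 mice) and Adam8EQ mutant injured discs (5 mice). Adam8 encodes a membrane-bound metalloprotease, and EQ names the mutant allele. The series title calls the comparison strain DBA. The labels do not state age, sex, the form of the injury or the time after it, nor whether mutants and wild types were littermates, so the Adam8 allele and any other inherited difference between the 2 lines cannot be told apart. The values of 1 read implied 10220111 to 24881478 assigned reads per library (median 13315174), and 20085 to 21919 genes reached 1 TPM. The disc identity of the tissue was present in every library, with 7 cartilage and annulus markers (Acan, Col2a1, Col1a1, Comp, Chad, Sox9 and Cilp) summing to between 7444 and 33890 TPM. The level of Adam8 itself was 1.51 ± 0.235 TPM (SD, n = 3) in wild-type intact and 1.55 ± 0.948 TPM (SD, n = 4) in mutant intact discs. In injured discs it ranged from 3.52 to 66.3 TPM in wild types and from 16.2 to 264.1 TPM in mutants, a difference of 1.65 ± 0.81 (SE, log2(TPM + 1); limma adjusted p = 0.268). The libraries do not show which allele was transcribed. In bulk tissue, fewer cells of a type and less RNA per cell cannot be told apart.

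The 9 genes have unlike roles. RTEL1 is a DNA helicase that unwinds telomere loops and other DNA secondary structures. DYNLT1 is a light chain of cytoplasmic dynein, RNF144B is a RING-between-RING ubiquitin ligase, and CRYBG1 belongs to the beta-gamma-crystallin superfamily. SOX7 is a transcription factor of the SOXF group, which is best known for its part in the endothelium. Zfp970, Gm14325 and Gm14326 lie in a large cluster of C2H2 zinc finger genes on chromosome 2, a class that includes many KRAB repressors of mobile elements, and Tmem181b-ps is annotated as a transcribed pseudogene. By position (GRCm38), 4 of the 9 were on chromosome 2, 2 on chromosome 17 and 1 each on chromosomes 10, 13 and 14. None was on chromosome 7, where Adam8 lies.

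The genes with a shared sequence are shown first, because the 3 zinc finger genes resembled each other in the 250 bases before their starts. RefSeq promoters on GRCm38.p6 matched 6 of the 9 genes by name. These sequences come from the reference mouse strain and not from the mice studied. Printed 5′ to 3′ on the gene's strand, the capitals mark a run of 54 bases that was identical in all 3 promoters.
Zfp970 (chr2:177464492-177464741, plus strand): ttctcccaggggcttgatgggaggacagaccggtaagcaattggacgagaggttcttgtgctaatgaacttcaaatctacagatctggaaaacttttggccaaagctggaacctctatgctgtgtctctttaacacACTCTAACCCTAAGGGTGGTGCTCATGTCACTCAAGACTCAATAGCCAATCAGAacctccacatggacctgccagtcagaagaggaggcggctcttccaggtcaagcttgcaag
Gm14325 (chr2:177840337-177840586, minus strand): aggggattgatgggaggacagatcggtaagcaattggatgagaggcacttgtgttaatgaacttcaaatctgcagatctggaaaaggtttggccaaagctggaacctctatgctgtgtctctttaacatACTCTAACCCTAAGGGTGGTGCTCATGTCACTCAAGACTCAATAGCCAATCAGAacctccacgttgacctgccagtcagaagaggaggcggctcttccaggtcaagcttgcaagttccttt
Gm14326 (chr2:177957289-177957538, minus strand): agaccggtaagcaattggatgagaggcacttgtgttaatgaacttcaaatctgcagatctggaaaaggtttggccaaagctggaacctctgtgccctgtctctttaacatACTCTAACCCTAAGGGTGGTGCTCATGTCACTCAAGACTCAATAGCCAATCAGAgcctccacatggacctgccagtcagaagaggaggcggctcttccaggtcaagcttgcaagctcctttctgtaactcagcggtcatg
The aligned parts were 95.1% identical between Zfp970 and Gm14325, 94.6% between Zfp970 and Gm14326, and 96.5% between Gm14325 and Gm14326. The run began 114, 121 and 140 bases before the start in Zfp970, Gm14325 and Gm14326. It holds the letters CCAAT, which, searched with ATTGG to cover both strands, occurred in 33.8% of 32851 promoters of the same length. Over all promoters the whole run, searched on both strands, was found before 26 genes, and all 26 lay on chromosome 2 between positions 175206875 and 178023333, a span of 2.82 Mb. Of those 26 genes 10 reached the level for testing, including the 3 described here, and 16 did not.

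Most of the 9 genes had no overlap between genotypes, and separation of the libraries was among the features looked at in the choice. Within intact discs 8 of 9 had no overlap, against a background of 6.18% of tested genes, and the exception was Dynlt1. Within injured discs 8 of 9 had none, against 4.77%, and the exception was Sox7. In both kinds of disc 7 of 9 had none (background 0.232%). With injury ignored, so that all 9 mutants were set against all 7 wild types, 5 of 9 had none (background 0.0579%): Rtel1, Crybg1, Tmem181b-ps, Rnf144b and Gm14326. Only 14 tested genes had that pattern, and the other 9 were Prps2, Msl3, Gm15261, Gm15246 and Mid1 on the X chromosome and Alad, Kcp, Jmjd1c and Gm26873 on autosomes. By limma with Benjamini-Hochberg adjustment below 0.05, 3 of 9 were called in intact discs (background 0.0165%) and 4 of 9 in injured discs (background 0.918%). The calls in intact discs were Rtel1, Crybg1 and Tmem181b-ps, and injured discs added Rnf144b. These values chose the genes, so nothing is read from the counts. The other 5 genes were called in neither kind of disc. Leaving out mutant intact mouse 1 or any wild-type intact mouse left Rtel1 as the only call in intact discs. Leaving out wild-type injured mouse 3 raised the count in injured discs from 4 to 7, adding Dynlt1, Gm14325 and Gm14326. Only Rtel1 was called in both kinds of disc under every alternative tried.

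**Figure D1:**
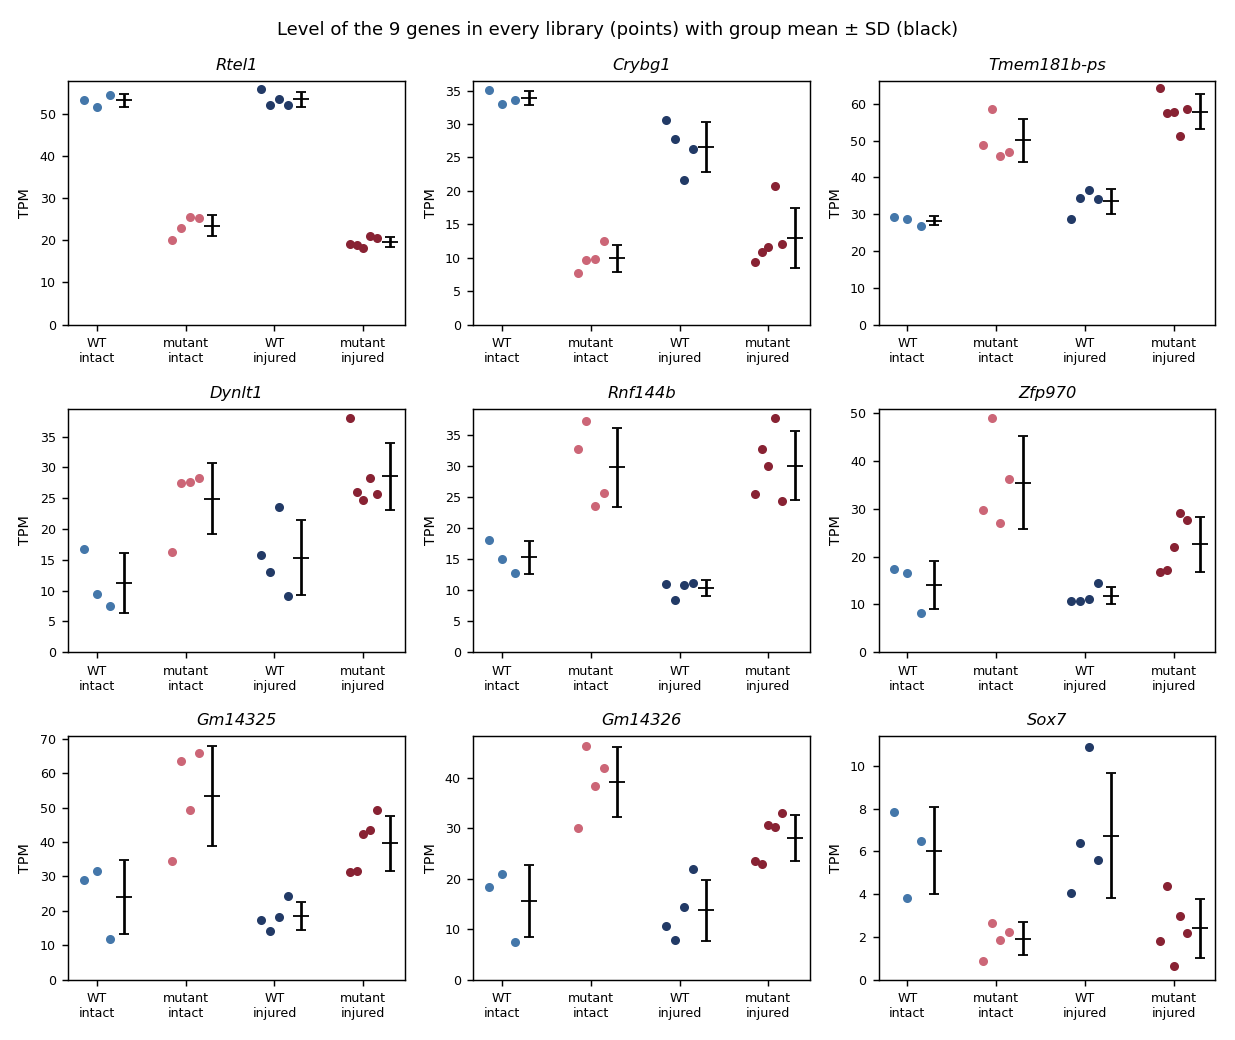
Level in TPM (vertical axis, from 0) of each of the 9 genes in every library, by group on the horizontal axis; each point is 1 mouse and the black mark is the group mean ± SD. Rtel1 sits between 51.6 and 55.8 TPM in all wild types and between 18.2 and 25.4 TPM in all mutants, while Sox7 overlaps in injured discs and Dynlt1 in intact discs.

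Rtel1 (ENSMUSG00000038685, chr2:181319739-181356616, plus strand) had the tightest groups. In wild-type intact discs it read 53.3, 51.6 and 54.5 TPM, and in mutant intact discs 19.99, 23.0, 25.4 and 25.2 TPM. In wild-type injured discs it read 55.8, 52.0, 53.5 and 52.0 TPM, and in mutant injured discs 19.1, 18.9, 18.2, 21 and 20.6 TPM. Every wild type was high and every mutant low, and the lowest wild type stood 2.03 times above the highest mutant. The means were 53.1 ± 1.47 TPM in wild-type and 23.4 ± 2.52 TPM in mutant intact discs (SD, n = 3 and 4), a mutant minus wild-type difference of -1.15 ± 0.09 (SE) in log2(TPM + 1). In injured discs the means were 53.3 ± 1.81 and 19.5 ± 1.19 TPM (SD, n = 4 and 5), a difference of -1.40 ± 0.08. No window of 50 bases of its transcripts was shared with another annotated gene.

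Crybg1 (ENSMUSG00000019866, chr10:43950636-44148853, minus strand) was the other gene that was low in every mutant. Wild-type intact discs held 35.05, 32.9 and 33.6 TPM, and mutant intact discs 7.69, 9.61, 9.78 and 12.6 TPM. Wild-type injured discs held 30.6, 27.8, 21.6 and 26.2 TPM, and mutant injured discs 9.43, 10.9, 11.6, 20.7 and 12.04 TPM. No mutant reached a wild type, but mutant injured mouse 4, at 20.7 TPM, came within a ratio of 1.04 of wild-type injured mouse 3. The difference was -1.69 ± 0.21 in intact discs and -1.02 ± 0.19 in injured discs (SE, log2(TPM + 1)). The call in injured discs was lost without mutant mouse 1, 3 or 5 and without wild-type mouse 1, 2 or 4, where the differences ran from -1.02 to -0.93. Of its windows of 50 bases 7.01% were shared, 5.99% with Gm10812, which was not tested, and 1.02% with Rtn4ip1, which overlaps it on the opposite strand. Rtn4ip1 differed by -0.39 ± 0.21 in intact and -0.07 ± 0.18 in injured discs and was not called, with adjusted p-values of 1 and 0.87 by limma. Whether the counting used strand is not given in the sources used here, so reads of overlapping genes on opposite strands may not be told apart.

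Sox7 (ENSMUSG00000063060, chr14:63943673-63950732, plus strand) was the lowest of the 9 and the least precisely measured, on 7 to 119 implied reads. Wild-type intact discs read 7.82, 3.81 and 6.47 TPM, and mutant intact discs 0.859, 2.67, 1.88 and 2.25 TPM. Wild-type injured discs read 4.08, 6.40, 10.9 and 5.59 TPM, and mutant injured discs 1.83, 4.37, 0.65, 2.98 and 2.19 TPM. Mutants were lower in intact discs without overlap, and in injured discs mutant mouse 2 stood above wild-type mouse 1. The difference was -1.27 ± 0.39 in intact and -1.22 ± 0.34 in injured discs (SE, log2(TPM + 1)), and neither passed the adjusted threshold.

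Because Sox7 marks endothelium, a list of 14 other endothelial genes (Pecam1, Cdh5, Tek, Tie1, Kdr, Flt1, Emcn, Erg, Vwf, Cldn5, Esam, Egfl7, Sox17 and Sox18) was read beside it. In mutants 12 of 14 were lower in intact and 12 of 14 in injured discs, with medians of -0.35 and -0.53 against -0.01 and -0.09 over all tested genes. Limma called 0 of 14 in either (background 0.0165% and 0.918%), with 0 and 1 at an unadjusted p below 0.05 (background 3.78% and 20.3%). Their summed level ranged from 51.9 to 92.4 TPM in wild-type intact, 44.2 to 74.7 TPM in mutant intact, 50.1 to 354.6 TPM in wild-type injured and 57.0 to 149.1 TPM in mutant injured discs, so the genotypes overlapped in both kinds of disc. Over the 16 libraries Sox7 and the mean of the list correlated at 0.55, and at 0.65 after group means were taken out, a description over libraries that share depth and tissue make-up. The list had a median injury change of 0.92 in wild type and 0.80 in mutants, where Sox7 changed by 0.11 ± 0.39 and 0.16 ± 0.34 (SE, log2). The part of endothelial content in the Sox7 difference was not tested. The close relatives Sox17 and Sox18 differed by -0.32 ± 0.44 and 0.03 ± 0.95 in intact discs, SEs of the same size as that of Sox7 or larger.

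**Figure D2:**
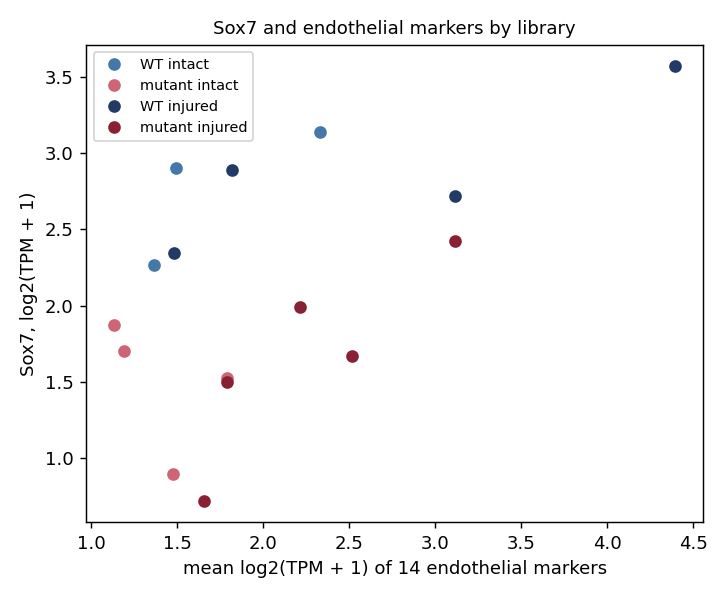
Sox7 level (vertical axis) against the mean level of 14 endothelial markers (horizontal axis), both in log2(TPM + 1), 1 point per mouse and coloured by group. At a marker level of 3.12 a wild-type and a mutant injured mouse read 2.72 and 2.42 for Sox7, at 1.48 and 1.47 wild-type injured mouse 1 and mutant intact mouse 1 read 2.34 and 0.89, and wild-type injured mouse 3 is highest on both axes at 4.39 and 3.57.

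Tmem181b-ps (ENSMUSG00000096780, chr17:6438524-6467022, minus strand) was higher in every mutant. Wild-type intact discs read 29.3, 28.6 and 26.9 TPM, and mutant intact discs 48.8, 58.7, 45.9 and 47.0 TPM. Wild-type injured discs read 28.8, 34.5, 36.5 and 34.2 TPM, and mutant injured discs 64.3, 57.5, 57.7, 51.2 and 58.7 TPM. The lowest mutant stood 1.26 times above the highest wild type. The difference was 0.80 ± 0.11 in intact and 0.77 ± 0.09 in injured discs (SE, log2(TPM + 1)), the most even pair of the 9.

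Dynlt1 (ENSMUSG00000096255, named Dynlt1b in GENCODE, chr17:6430112-6436296, plus strand) ends 2.2 kb before Tmem181b-ps on the map and was also higher in mutants. Wild-type intact discs read 16.8, 9.41 and 7.58 TPM, and mutant intact discs 16.3, 27.4, 27.7 and 28.2 TPM. Wild-type injured discs read 15.8, 13.0, 23.5 and 9.10 TPM, and mutant injured discs 38.0, 26.1, 24.7, 28.3 and 25.7 TPM. Mutant intact mouse 1 fell just below the highest wild type, and the injured groups did not overlap. The difference was 1.12 ± 0.30 in intact and 0.91 ± 0.26 in injured discs (SE, log2(TPM + 1)). The 2 neighbours did not rise and fall closely together within groups, with a correlation of 0.26 over 16 libraries after group means were taken out.

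Both chromosome 17 genes share sequence with near copies, which makes their levels uncertain as single genes. Of the windows of 50 bases in Tmem181b-ps transcripts, 50.8% also occurred in another gene, 44.4% in Tmem181a and 21.7% in Tmem181c-ps. For Dynlt1 the share was 83.2%, with 76.3% in each of Dynlt1a and Dynlt1c and 69.4% in Dynlt1f. Limma called none of the copies by genotype (background 0.0165% in intact and 0.918% in injured discs). Tmem181a differed by 0.01 ± 0.13 in intact discs and by 0.41 ± 0.12 once injured (SE; adjusted p of 1 and 0.085 by limma), and Tmem181c-ps by 0.13 ± 0.12 and 0.05 ± 0.11 (adjusted p of 1 and 0.81). Without wild-type injured mouse 3, Tmem181a was called in injured discs at 0.47 ± 0.12 (SE; limma adjusted p = 0.033). Dynlt1c differed by -0.07 ± 0.24 and 0.07 ± 0.21, and Dynlt1f by -0.07 ± 0.34 and 0.14 ± 0.29, with no call. Dynlt1a and Dynlt1-ps1 were below 3 TPM in every group mean and were not called either. Dynlt1a differed by -0.65 ± 0.42 and 0.34 ± 0.37 (SE). Dynlt1-ps1, which holds 37.7% of the Dynlt1 windows, differed by 0.69 ± 0.52 and 0.84 ± 0.46, in the direction of Dynlt1. The long noncoding gene Gm26848 overlaps both loci in position and differed by -0.16 ± 0.22 and -0.25 ± 0.20 (SE), with no call.

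The levels of the copies were also summed, although how shared reads were counted is not given in the sources used here and TPM depends on each copy's length. The Tmem181 sum was 64.5 ± 1.91 TPM in wild-type intact, 88.9 ± 6.16 TPM in mutant intact, 75.1 ± 3.34 TPM in wild-type injured and 105.1 ± 3.14 TPM in mutant injured discs (SD, n = 3, 4, 4 and 5). The highest wild type, at 79.7 TPM, stayed below the lowest mutant, at 84.2 TPM. The Dynlt1 sum held Dynlt1, Dynlt1a, Dynlt1c and Dynlt1f and left out Dynlt1-ps1. It was 19.2 ± 4.01, 31.6 ± 6.28, 22.3 ± 6.37 and 36.9 ± 5.05 TPM in the same order. Mutant intact mice reached down to 22.4 TPM where wild-type intact mice reached up to 23.6 TPM. The mutant means were higher in both sums and in both kinds of disc. Each sum includes a gene chosen for its genotype difference, so nothing is read from these separations or means. By group, Tmem181b-ps made up 43.8% to 56.2% of its sum on average and Dynlt1 56.9% to 78.6%.

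**Figure D3:**
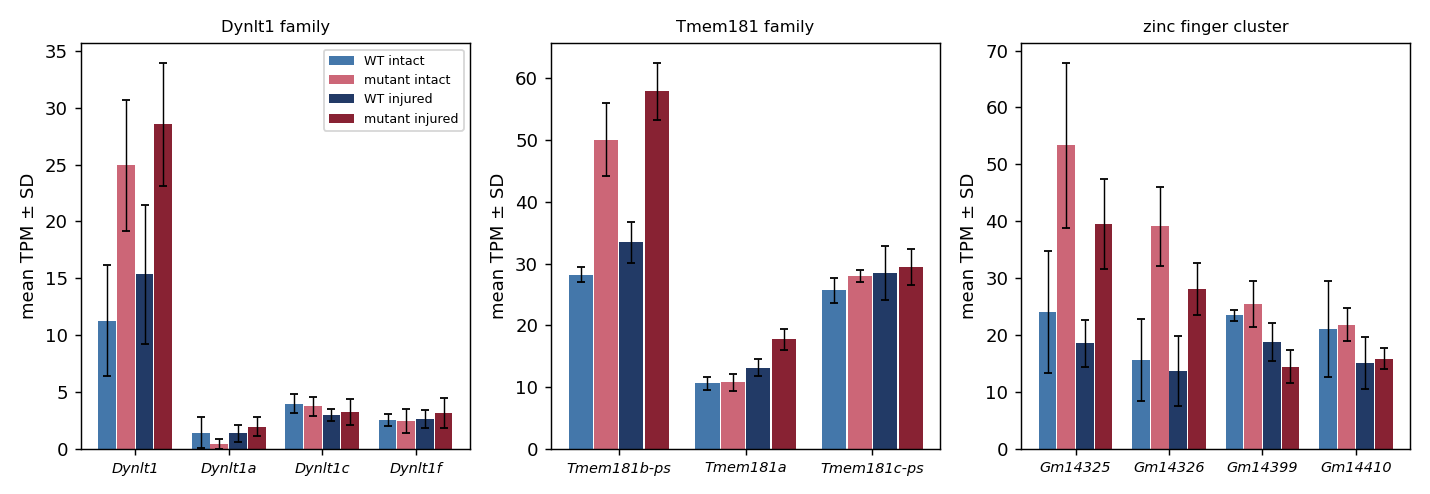
Mean TPM ± SD (bars, from 0) of members of 3 gene families in the 4 groups, with n of 3 wild-type intact, 4 mutant intact, 4 wild-type injured and 5 mutant injured mice. Tmem181b-ps stands at 28.2 and 50.1 TPM in wild-type and mutant intact discs, beside 25.6 and 28.1 TPM for Tmem181c-ps, and Gm14325 at 24.1 and 53.3 TPM beside 23.5 and 25.4 TPM for Gm14399.

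Rnf144b (ENSMUSG00000038068, chr13:47122656-47247991, plus strand) was higher in every mutant and shared no window of 50 bases with another gene. Wild-type intact discs read 18.1, 15.0 and 12.8 TPM, and mutant intact discs 32.8, 37.4, 23.6 and 25.7 TPM. Wild-type injured discs read 11.1, 8.36, 10.8 and 11.1 TPM, and mutant injured discs 25.5, 32.8, 30.1, 37.8 and 24.4 TPM. The lowest mutant, at 23.6 TPM, stood 1.30 times above the highest wild type. The difference was 0.91 ± 0.19 in intact and 1.45 ± 0.16 in injured discs (SE, log2(TPM + 1)), and the mutant means were nearly equal, at 29.9 and 30.1 TPM, while the wild-type means were 15.3 and 10.4 TPM.

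The 3 zinc finger genes were all higher in mutants. Zfp970 (ENSMUSG00000078866, chr2:177464733-177478129, plus strand) ranged from 8.21 to 17.4 TPM in wild-type intact, 26.9 to 48.9 TPM in mutant intact, 10.7 to 14.4 TPM in wild-type injured and 16.8 to 29.2 TPM in mutant injured discs. Gm14325 (ENSMUSG00000095362, chr2:177831791-177840336, minus strand) ranged from 11.8 to 31.5, 34.5 to 65.95, 14.2 to 24.2 and 31.3 to 49.3 TPM in the same groups. For both, the groups did not overlap within intact or within injured discs, but mutant injured mice overlapped wild-type intact mice.

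Gm14326 (ENSMUSG00000078862, chr2:177935993-177957297, minus strand) separated all 16 libraries. Wild-type intact discs read 18.4, 20.97 and 7.45 TPM, and mutant intact discs 29.9, 46.2, 38.3 and 42.0 TPM. Wild-type injured discs read 10.6, 7.89, 14.4 and 22.0 TPM, and mutant injured discs 23.6, 22.8, 30.6, 30.2 and 33.1 TPM. Wild-type injured mouse 4 and mutant injured mouse 2 were closest, at a ratio of 1.04. The differences in intact and injured discs were 1.31 ± 0.27 and 0.86 ± 0.23 for Zfp970, 1.19 ± 0.31 and 1.06 ± 0.27 for Gm14325, and 1.37 ± 0.33 and 1.06 ± 0.29 for Gm14326 (SE, log2(TPM + 1)).

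These 3 are not independent measurements. They share 49.7%, 82.3% and 85.4% of their windows of 50 bases with other genes, mostly of the same cluster, and Gm14325 shares 70.4% of its windows with Gm14326. After group means were taken out, the level of Gm14325 correlated at 0.87 with Zfp970 and at 0.92 with Gm14326, and Zfp970 with Gm14326 at 0.79, over the same 16 libraries. Gm14399 and Gm14410, close copies of Gm14325 and Gm14326, differed by 0.10 ± 0.18 and 0.13 ± 0.26 in intact discs and by -0.37 ± 0.16 and 0.10 ± 0.23 in injured discs (SE), and limma called neither. The sum of the 4 genes Gm14325, Gm14326, Gm14399 and Gm14410 was 84.2 ± 25.9 TPM in wild-type and 139.7 ± 28.02 TPM in mutant intact discs, and 66.2 ± 13.9 and 97.9 ± 17.1 TPM in injured discs (SD, n = 3, 4, 4 and 5). In intact discs the highest wild type, at 102.1 TPM, nearly met the lowest mutant, at 102.3 TPM. In injured discs the genotypes overlapped, with wild types up to 85.4 TPM and mutants down to 78.9 TPM. This sum includes the chosen genes Gm14325 and Gm14326, so its differences are not separate from the choice.

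The identical promoter run was also carried by other genes of the cluster. Of the 7 other tested genes that carry it, 7 had a higher mean in mutant intact discs, with a median difference of 0.30 and a range of 0.13 to 1.11. In injured discs 6 were higher and 1 lower, with a median of 0.20. The medians over all tested genes were -0.01 and -0.09. Limma called 0 of 7 in either (background 0.0165% and 0.918%), with 3 and 2 at an unadjusted p below 0.05 (background 3.78% and 20.3%). Chosen after their values were seen, Gm14403 differed by 1.11 ± 0.32 and 0.71 ± 0.28 and Gm14322 by 0.93 ± 0.38 and 1.04 ± 0.33 in intact and injured discs (SE), beside 0.86 to 1.37 for the 3 genes, while Gm14410 carries the run as well and differed by 0.13 and 0.10. Gm14322 was called in injured discs without wild-type injured mouse 3, at 1.29 ± 0.33 (SE; limma adjusted p = 0.031). Neighbours not found to carry the run were also picked after their values were seen. Gm14327 differed by 0.75 ± 0.31 in intact and 0.84 ± 0.28 in injured discs. Zfp972 differed by 0.83 ± 0.33 and -0.16 ± 0.29, and Zfp931 by -0.10 ± 0.20 and -0.53 ± 0.18 (SE). Whether carriers of the run differed from other genes of the cluster was not tested. Some carriers share sequence with the 3 genes: Gm14410 holds 36.0% of the windows of Gm14326, and Gm14305 24.2% of those of Gm14325.

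Injury independence was the third feature by which the genes were gathered. The difference in injured discs minus that in intact discs was 0.67 ± 0.28 for Crybg1, 0.54 ± 0.25 for Rnf144b, -0.45 ± 0.35 for Zfp970, -0.32 ± 0.44 for Gm14326 and -0.25 ± 0.12 for Rtel1 (SE, log2). It was -0.21 ± 0.40 for Dynlt1, -0.13 ± 0.41 for Gm14325, 0.05 ± 0.52 for Sox7 and -0.03 ± 0.14 for Tmem181b-ps. The SEs of Sox7, Gm14325, Gm14326, Dynlt1 and Zfp970 ran from 0.35 to 0.52, so a shift of the size seen in Crybg1 would be within 2 SE in each. All 9 kept one direction in both kinds of disc.

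**Figure D4:**
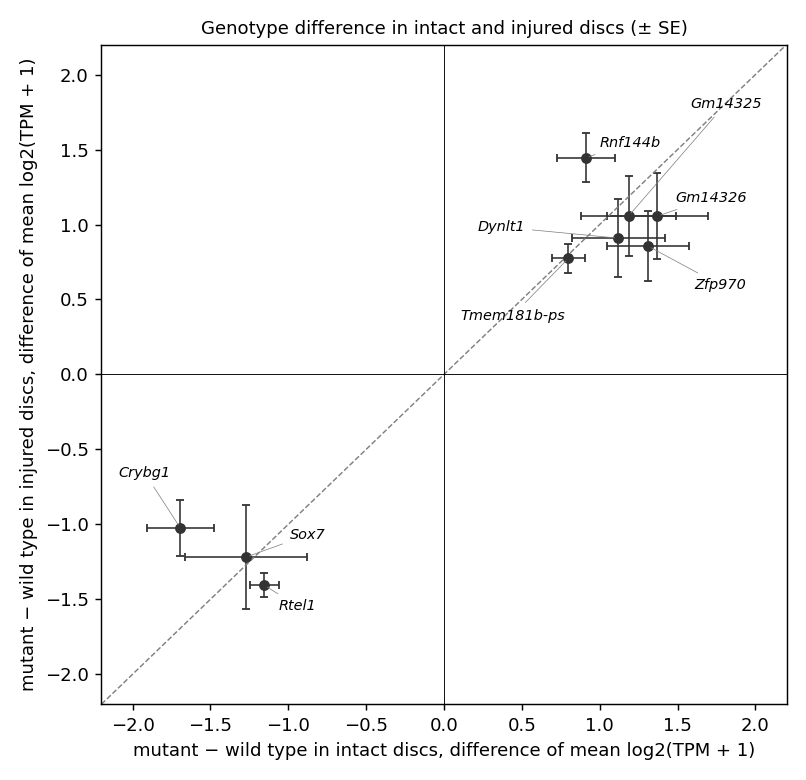
Mutant minus wild-type difference in intact discs (horizontal axis) and in injured discs (vertical axis), in log2(TPM + 1), with SE bars; the dashed line marks equal differences. The 6 genes higher in mutants lie in the upper right and the 3 lower in mutants in the lower left, with Rnf144b and Crybg1 above the line by 0.54 and 0.67.

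The change with injury within each genotype is given as a description, because the difference between the 2 changes is the value given above and was part of the choice. In wild types limma called 0 of 9 (background 0.116%), with 2 of 9 at an unadjusted p below 0.05: Rnf144b at -0.52 ± 0.19 (adjusted p = 0.201) and Tmem181b-ps at 0.23 ± 0.11 (adjusted p = 0.287). In mutants it called 1 of 9 (background 30.8%). That gene was Rtel1, which fell by 0.24 ± 0.08 (SE, log2; adjusted p = 0.035). All 5 injured mutants lay below intact mutants 2, 3 and 4, and 3 of the 5 lay below intact mutant 1 as well. Zfp970 followed at -0.63 ± 0.23 (adjusted p = 0.053) and was called under some alternatives. The call for Rtel1 was lost under median-of-ratios scaling, at -0.16, under quantile normalization, at -0.19, with a spread that ignores the level, with only the groups compared and with the replicate block, at -0.26. It was lost too when the mutants named M or those named A8 were used alone, at -0.33 and -0.17. It was also lost without injured mutant 1, 2 or 3 and without intact mutant 2, 3 or 4, at values from -0.25 to -0.20. Leukocyte markers moved with injury over the same libraries: the sum of 6 (Ptprc, Lyz2, Cd68, S100a8, S100a9 and Csf1r) ranged from 118.3 to 158.8 TPM in mutant intact and 600.9 to 7219 TPM in mutant injured discs, and their part in the injury values was not tested.

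The genes beside each of the 9 were read next. The 10 nearest tested genes on each side of each gene made 127 different neighbours, with the 9 genes themselves left out of the lists, so that Tmem181b-ps and Dynlt1 do not count as neighbours of each other, nor the 3 zinc finger genes. By limma 0 of 127 were called in intact and 0 of 127 in injured discs (background 0.0165% and 0.918%). With so few genes called at all, 0 calls do not show that the neighbours were equal between genotypes. At an unadjusted p below 0.05 there were 9 of 127 and 21 of 127, against 3.78% and 20.3% of all tested genes. Without wild-type injured mouse 3, limma called 12 of 127 in injured discs, where it called 2253 of all tested genes. Around Rtel1 the 20 neighbours had median differences of 0.00 and 0.04, against -1.15 and -1.40 for Rtel1. Stmn3, the first gene before Rtel1 and a stathmin family member, differed by -0.86 ± 0.36 and -0.72 ± 0.32 (SE; adjusted p of 1 and 0.218) and was singled out after its values were seen. The neighbours of Zfp970, Gm14325 and Gm14326 form overlapping lists, many from the same zinc finger cluster, and some share sequence with the 3 genes. In intact discs 5, 5 and 7 of 20 had an unadjusted p below 0.05, and in injured discs 4, 4 and 5. Around Zfp970, 18 of 20 neighbours were higher in mutant intact discs, with a median of 0.25, and 9 of 20 in injured discs, with a median of -0.04. The medians over all tested genes were -0.01 and -0.09. Whether the 2 medians around Zfp970 differ was not tested. The 20 neighbours of Rnf144b had medians of 0.03 and -0.12, those of Crybg1 -0.08 and -0.09, and those of Sox7 -0.05 and -0.05.

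**Figure D5:**
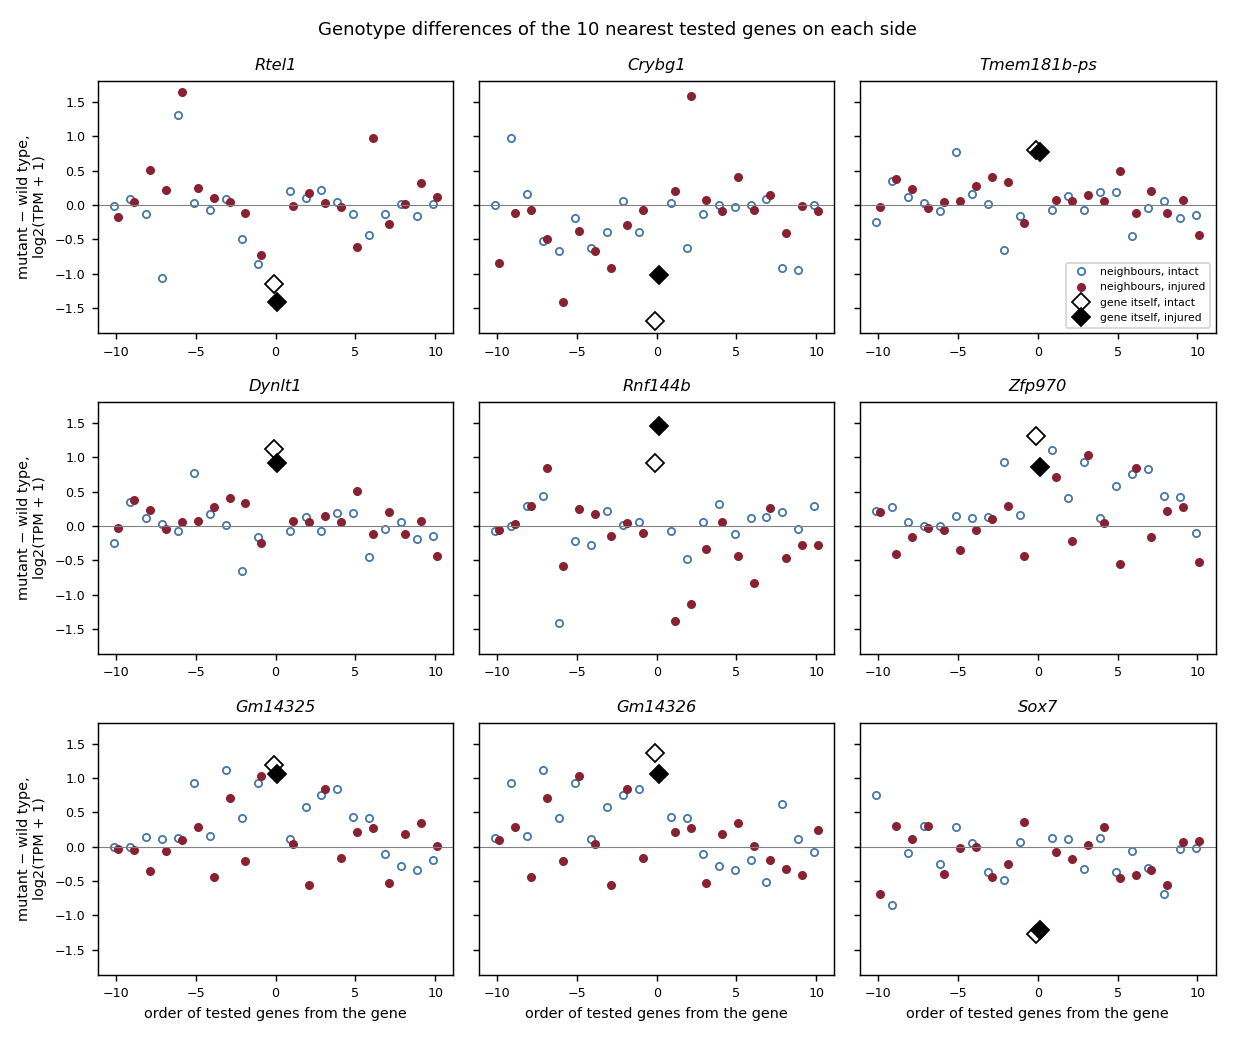
Mutant minus wild-type difference in log2(TPM + 1) (vertical axis) of the 10 nearest tested genes on each side of each of the 9 genes, by their order along the chromosome (horizontal axis, 0 is the gene itself). Circles are neighbours and diamonds the gene itself, open for intact and filled for injured discs; around the zinc finger genes several open circles lie near 1, as for Gm14403 at 1.11.

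Partner families were read in the same way. The lists held telomere and iron-sulphur helicase genes, dynein chains, RING-between-RING ligases, KRAB zinc finger cofactors, and close relatives of Sox7, Crybg1 and Tmem181b-ps. Of 50 tested genes limma called 0 in intact and 0 in injured discs (background 0.0165% and 0.918%). Of the 50, 0 and 12 had an unadjusted p below 0.05 (background 3.78% and 20.3%). Without wild-type injured mouse 3, 5 were called in injured discs: Rnf19b, Wrn, Tinf2, Dynll2 and Tmem181a, named after their values were seen. The median differences over the 50 were -0.04 and -0.04. Among 17 telomere and helicase genes, 9 were higher and 8 lower in mutant intact discs (median 0.04), and 6 and 11 in injured discs (median -0.17). Tert, the telomerase reverse transcriptase, read 8.92 TPM in wild-type and 10.7 TPM in mutant intact discs, a difference of 0.23 ± 0.23, and 7.68 and 6.27 TPM in injured discs, a difference of -0.24 ± 0.20 (SE). Among 10 RING-between-RING ligases Rnf144a, the closest relative of Rnf144b, differed by -0.09 ± 0.33 and -0.66 ± 0.29, and Rnf19b, chosen after its values were seen, by 0.26 ± 0.35 and 1.17 ± 0.31 (adjusted p of 1 and 0.074). The 7 KRAB cofactors had medians of -0.06 and -0.12, with Trim28, the corepressor that KRAB domains recruit, at -0.14 ± 0.07 and 0.01 ± 0.06. The 12 dynein chains had medians of -0.07 and -0.01.

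The genes whose levels most resembled each of the 9 over the 16 libraries were read by Pearson correlation, with the 9 genes themselves and genes without an established symbol left out of the ranking, as a description over libraries that share the genotype split. For Rtel1 they were Msl3 (0.96), a chromatin gene on the X chromosome, and Alad (0.90), an enzyme of haem synthesis. For Crybg1 they were Msl3 (0.86) and Scn2b (0.84), and for Sox7 Mid1 (0.93) and Pik3r1 (0.89). Tmem181b-ps was most like Herpud1 (0.85) and Jmjd1c (0.83), Rnf144b like Rab11fip1 (0.83) and Slco3a1 (0.78), and Dynlt1 like Slc7a3 and Mtmr6 (0.82 each). Outside the 9, all 3 zinc finger genes had Mir3109 first, at 0.80 for Zfp970, 0.84 for Gm14325 and 0.83 for Gm14326, followed by Bptf for Zfp970 (0.77) and Rarg for Gm14325 and Gm14326 (0.79 and 0.81). Among the 9 genes, Gm14325 and Gm14326 correlated at 0.98, Zfp970 with them at 0.95 and 0.94, and Rtel1 with Crybg1 at 0.90, above the values just given for Gm14325, Gm14326, Zfp970 and Crybg1. Rtel1 and Tmem181b-ps correlated at -0.95 on their levels and at -0.41 after group means were taken out.

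Other tissue markers were read beside the 9 genes, and their part in the 9 differences was not tested. In intact discs the sum of 6 skeletal muscle genes ranged from 161.9 to 661.2 TPM in wild types and 100.5 to 124.5 TPM in mutants, without overlap. In injured discs it ranged from 65.5 to 187.0 and from 20.6 to 515.3 TPM. The sum of 3 erythroid genes ranged from 255.6 to 715.5 TPM in wild-type and 66.8 to 265.8 TPM in mutant intact discs, and from 106.3 to 1445 and 179.3 to 1150 TPM in injured discs. The 7 cartilage and annulus markers summed to 24900 to 30790 TPM in wild-type and 30340 to 33890 TPM in mutant intact discs, and to 12310 to 24850 and 7444 to 17830 TPM in injured discs. The sum of the nucleus pulposus genes ranged from 12020 to 13190 TPM in wild-type and 5235 to 12080 TPM in mutant intact discs, and from 2287 to 8180 and 560.5 to 5456 TPM in injured discs. The 6 leukocyte genes summed to 189.9 to 3198 TPM in wild-type and 600.9 to 7219 TPM in mutant injured discs. Limma called 0 of 43 tested marker genes in either genotype comparison (background 0.0165% in intact and 0.918% in injured discs). At an unadjusted p below 0.05 there were 2 in intact and 4 in injured discs (background 3.78% and 20.3%). Library names split the mutants into A8 (2 injured and 2 intact mice) and M (3 injured and 2 intact mice), and every wild type was named D, so the naming of wild types cannot be told apart from genotype. With the A8 mutants alone, Rtel1 differed by -1.27 in intact and -1.44 in injured discs, and with the M mutants alone by -1.04 and -1.38. Zfp970 in injured discs moved from 0.86 ± 0.23 to 0.50 ± 0.30 with the A8 mutants alone and 1.09 with the M mutants alone (SE). In the same order, Gm14325 moved from 1.06 to 0.75 ± 0.38 and 1.26 ± 0.30, and Gm14326 from 1.06 to 0.81 ± 0.44 and 1.22 ± 0.35 (SE). Crybg1 moved from -1.02 to -1.30 and -0.84. Injured A8 and M mutants did not overlap for Gm14325, at 31.3 to 31.5 and 42.4 to 49.3 TPM, or for Gm14326, at 22.8 to 23.6 and 30.2 to 33.1 TPM. Without wild-type intact mouse 3, the difference of Gm14325 in intact discs was 0.76 in place of 1.19.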

How the data were processed

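Bulk RNA sequencing libraries of 16 mice were grouped by their titles, 1 library per mouse. Reads were demultiplexed with bcl2fastq 2.20 and GRCm38 was the genome build, per the submitters' processing notes; the aligner, the counter and its use of strand are not given in the sources used here. The protocol in the labels describes ribosomal RNA depletion, whereas the molecule field reads polyA RNA. The authors deposited TPM values for 49315 genes, and each column sums to 1000000. Positions, strands and shared sequence come from GENCODE M21, in which 99.5% of the gene identifiers were found.

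Levels were analysed as log2(TPM + 1) by linear models with a moderated, level-dependent spread (limma 3.58.1, R 4.3.3). Genes at 1 TPM or more in at least 3 libraries were kept, all 4 groups shared 1 spread, and p-values were adjusted over 24188 genes by Benjamini-Hochberg with a threshold of 0.05. A difference on this scale understates the change of low genes. Reads were inferred from the steps between low TPM values and gene lengths, and 94.0% to 94.9% of values under 20 reads lay within 0.05 of a whole number. On simulated data for the injured genotype comparison (24188 genes), 55% of genes changed by log2 1 and 83% of those changed by log2 2 were recovered. In that comparison 10 unchanged genes were also called. The simulation drew noise independently for each gene, with the same spread in all groups. In the real data the injured calls ran from 7 to 2253 with a mouse left out, so the simulated recovery may not hold there. No changes were simulated for the intact comparison, so its recovery is not known. The p-values measure the spread between mice. Named genes were the 9 genes, Adam8, any list gene or neighbour called in a genotype comparison (there were none), the 2 most correlated genes per member and the close copies. The members and lists were chosen with earlier results of these data known. Alternatives covered pseudocount, filter, scaling, weights, library naming, a replicate block and each mouse left out.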

Additional observations from a re-analysis of the deposited data

Results flagged for a closer look

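In 27 groups of the 9 genes with at least 4 mice, 3 had 1 mouse far from the rest, where chance gives about 1 group in 20. The gap to the nearest other mouse, as a share of the group's range, was 0.947 for Dynlt1 in mutant intact mouse 1, which read 16.3 TPM against 27.4 to 28.2 TPM in the others. It was 0.908 for Rnf144b in wild-type injured mouse 2, at 8.36 TPM against 10.8 to 11.1 TPM. It was 0.849 for Zfp970 in wild-type injured mouse 4, at 14.4 TPM against 10.7 to 11.2 TPM. Without mutant intact mouse 1, the genotype difference of Dynlt1 in intact discs was 1.30.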

How the results depend on the processing

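The genotype differences of the 9 genes kept their direction in 484 of 484 alternative values. The genes were chosen for these differences in the same libraries, so a kept direction was largely set by the choice and nothing is read from it. Sox7 gave no value under a filter on a mean of 5 TPM. Of these values 3 moved by more than the spread between mice: Rtel1 in intact discs was -1.04 with the M mutants alone and -1.27 with the A8 mutants alone, and -1.30 in injured discs under median-of-ratios scaling. Rescaling shifted the median of all genes by under 0.1. Called genes among the 9 in intact discs were 3, and 1 with only the compared groups or the M mutants; leaving out a mouse gave 1 to 3, with 1 without mutant intact mouse 1 or any wild-type intact mouse. In injured discs they were 4, then 7 with array weights, 2 with only the compared groups or a replicate block, and 1 with the A8 mutants; leaving out a mouse gave 3 to 7, with 7 without wild-type injured mouse 3. For injury in mutants the count was 1, then 2 under the mean filter or array weights. It was 0 under quantile normalization, a spread that ignores the level, the M mutants or the A8 mutants, and 0 to 2 with a mouse left out. The called gene was not always Rtel1, which kept its call in 14 of 27 alternatives. Zfp970 stayed uncalled in 20 of 27, Tmem181b-ps in 25 of 27 and Gm14326 in 26 of 27, and each was called in the rest. Rtel1 with injury in mutants was -0.16 under median-of-ratios scaling and -0.26 with the replicate block. Injured neighbours called were 0, then 4 with array weights, 1 with the M mutants and 0 to 12 with a mouse left out; for family genes these were 0, 2, 1 and 0 to 5. Over all genes, intact calls were 4, then 8 with array weights or the A8 mutants and 2 with the replicate block or the M mutants, and 1 to 7 with a mouse left out. Injured calls were 222, then 86 with no filter, 93 with quantile normalization, 1070 with array weights, 5 with only the compared groups, 11 with the replicate block, 2 with the A8 mutants and 7 to 2253 with a mouse left out, the highest without wild-type injured mouse 3. Same-numbered mice did not pair, with correlations of their deviations from -0.217 to 0.078 over the comparisons, so the replicate block is only a check. The cause of these changes was not tested. Depth limits Sox7 (7 to 119 implied reads) and Dynlt1 (15.1 to 169.7) most.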
